A study of Glycine max with 21 samples.

Results

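The genes described here are 200 soybean gene models whose transcripts were low in roots after 6 and 12 hr in salt and at none of the other sampling points, out of 62537 gene models with counts. They were selected on measured values, namely the counts that the authors divided by 1 DESeq size factor per library. For each gene the mean of each group was taken as log2 (mean + 10), and the score was the lowest value among the control, the 3 dehydration groups and salt at 1 hr minus the higher of the values at 6 and 12 hr of salt. A score above 0 and dehydration means at 6 and 12 hr within 1 log2 unit of the control were required, which 7078 gene models met, and the 200 highest scores were kept. The scores ran from 1.995 down to 0.891, with a median of 1.033. The last gene kept was Glyma17g29730, at 0.891, and the next below it was Glyma18g47630, at 0.887, so the list ends on a continuous slope and has no natural edge. All levels and differences between the 2 late salt groups and the others that follow are therefore descriptions without a test.

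The samples were roots of G. max cv. Williams 82 seedlings at the first trifoliolate stage. Group Co0 was the control at 0 hr, De1, De6 and De12 were plants left in air without water for the number of hours in the name, and Na1, Na6 and Na12 were plants moved to 100 mM NaCl for those same times. Each of the 7 groups had 3 libraries, which the study's methods call biological replicates, with 3752853 to 28177205 counts per library. Controls were taken at 0 hr alone, so a change with salt and a change with the hours after 0 hr cannot be told apart in a comparison with Co0, whereas De6 and De12 were harvested after the same number of hours as Na6 and Na12. The 21 libraries filled 3 sequencing lanes of 7 libraries. All Na1 and Na6 libraries and 1 Na12 library were in lane 2, and the controls were in lanes 3 and 4. The comparison of Na6 with Na1 therefore lies within lane 2. For Na12 against Co0, a comparison without the lane 2 libraries is given beside the pooled one. It spans lanes 3 and 4, which both groups share, and has no term for lane. The Co0, De1 and De6 libraries were all outside lane 2. No comparison within a lane could be made for Na6 against Co0 or De6, or for Na1 against Co0 or De1. In these, lane and treatment changed together. In whole roots, fewer cells of a type and less RNA per cell cannot be told apart.

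Salt in the medium acts on a root in at least a pair of ways that textbooks treat separately: it lowers the water potential outside, as drying does, and it loads the tissue with sodium and chloride ions over a longer time. Dehydration in air shares the water deficit and lacks the ions. Genes that fall late in salt and not under dehydration are of interest because the 2 treatments of this study can then be set against each other at the same hours.

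The difference was moderate in most members and large in a few. The 200 members together took 0.874 ± 0.208% of all counts in Co0 (SD, n = 3), 0.869 ± 0.262% in Na1, 0.301 ± 0.0519% in Na6 and 0.261 ± 0.061% in Na12. The dehydrated groups De1, De6 and De12 stood at 1.11 ± 0.393%, 1.1 ± 0.316% and 0.996 ± 0.146%. In the fit over all genes (edgeR), the median log2 fold change against Co0 over the members was -1.5 at 6 hr of salt, with single genes between -5.09 and -0.93, and -1.54 at 12 hr, where the median over all 36691 tested genes was -0.03 and -0.04. All 200 members passed the filter on low counts, but the value of -5.09 (SE 1.475) rests on few reads. Its gene had raw counts of 8, 35 and 55 in Co0 and 1, 1 and 0 in Na6. Within lane 2, the median of Na6 against Na1 was -1.48, and with the libraries of lanes 3 and 4 alone the median of Na12 against Co0 was -1.6. Set against dehydration of equal length, the median was -1.86 for Na6 and -1.62 for Na12. No lane held both Na6 and De6 libraries. All De12 libraries were in lane 4, where replicate 3 was the only Na12 library. Na6 and Na12 were compared with the same Co0 libraries, so their values are not independent of each other.

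**Figure D1:**
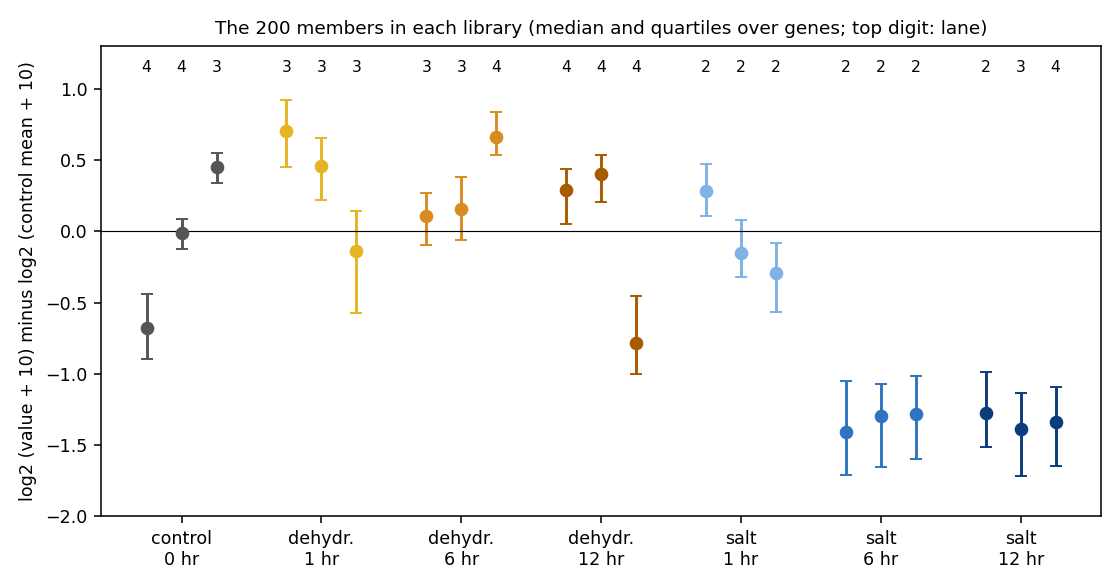
Each point is 1 library and gives the median over the 200 members of log2 (normalized count + 10) minus log2 (control mean + 10), with bars from the lower to the upper quartile of the members and the lane above. The 6 libraries of salt at 6 and 12 hr lie between -1.406 and -1.275, below the lowest of the others, replicate 3 of De12 at -0.784 and replicate 1 of Co0 at -0.681.

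Single libraries did not all keep to their group. Relative to the control mean, the members' median was -0.681 log2 units in replicate 1 of Co0 and -0.784 in replicate 3 of De12, whereas replicate 3 of Co0 was at 0.45. Of the members, 93 of 200 had all 6 late salt libraries below all 15 others, and in the remaining members at least 1 library overlapped. Over all tested genes 0.995% had this pattern. Inside lane 2 the 3 Na6 libraries were below the 3 Na1 libraries in 183 members and in 13.9% of all tested genes. In lanes 3 and 4 the 2 Na12 libraries were below the other 12 libraries in 158 members and in 6.96% of all tested genes. The rule used the means of these same groups, so nothing is read from the differences between members and all genes.

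The median fold changes depended on single controls. Without replicate 3 of Co0 they were -1.17 at 6 hr and -1.2 at 12 hr, and without replicate 1 of Co0 they were -1.75 and -1.79. When the model also held the lane, the medians were -1.65 for Na6 and -1.61 for Na12. No lane held both Na6 and Co0 libraries. Replicate 1 of Na12 was the only lane 2 library from a group that was also sequenced in other lanes. The value for Na6 with lane therefore rests on this 1 library and does not settle the part of lane. The sign of all these medians was fixed by the choice of the members.

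The highest score belonged to Glyma03g37420. Its normalized counts were 24, 41.9 and 158 in the Co0 libraries, 132, 50.4 and 92 in Na1, 13.1, 17.6 and 2.99 in Na6 and 13.9, 3.06 and 13.4 in Na12. The lowest of the other 15 libraries, replicate 1 of Co0, was at 24, so the groups did not overlap, but the control itself spanned more than the gap. Its log2 fold change was -3.01 (SE 0.897) at 6 hr and -2.99 (SE 0.869) at 12 hr, and without replicate 3 of Co0 it was -1.82 and -1.8. The neighbouring gene model on chromosome 3, Glyma03g37430, was also a member, with a log2 fold change against Co0 of -2.69 (SE 0.687) in Na6. This value rests on few reads, with raw counts of 12, 39 and 69 in Co0 and 1, 5 and 10 in Na6.

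Glyma08g02590, with the next score, stood at 457, 329 and 508 normalized counts in Co0 and at 340, 524 and 687 in De6. It had 149, 60 and 125 in Na6 and 78.5, 48.2 and 84.9 in Na12. No late salt library reached the lowest of the others, which was 241 in replicate 3 of De1. The log2 fold change was -1.96 (SE 0.508) at 6 hr and -2.65 (SE 0.525) at 12 hr.

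The most abundant member by normalized count, Glyma05g36960, had 19489, 12042 and 11559 in Co0, 8124, 24601 and 20686 in De6, 5484, 3260 and 7615 in Na6 and 3267, 1423 and 8050 in Na12. Its late salt libraries overlapped the others, since replicate 3 of De1 held 5763. The control mean was 2.63 times that of Na6 and 3.38 times that of Na12. Among the 12 highest scores, 8 had no overlap between the 6 late salt libraries and the rest.

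**Figure D2:**
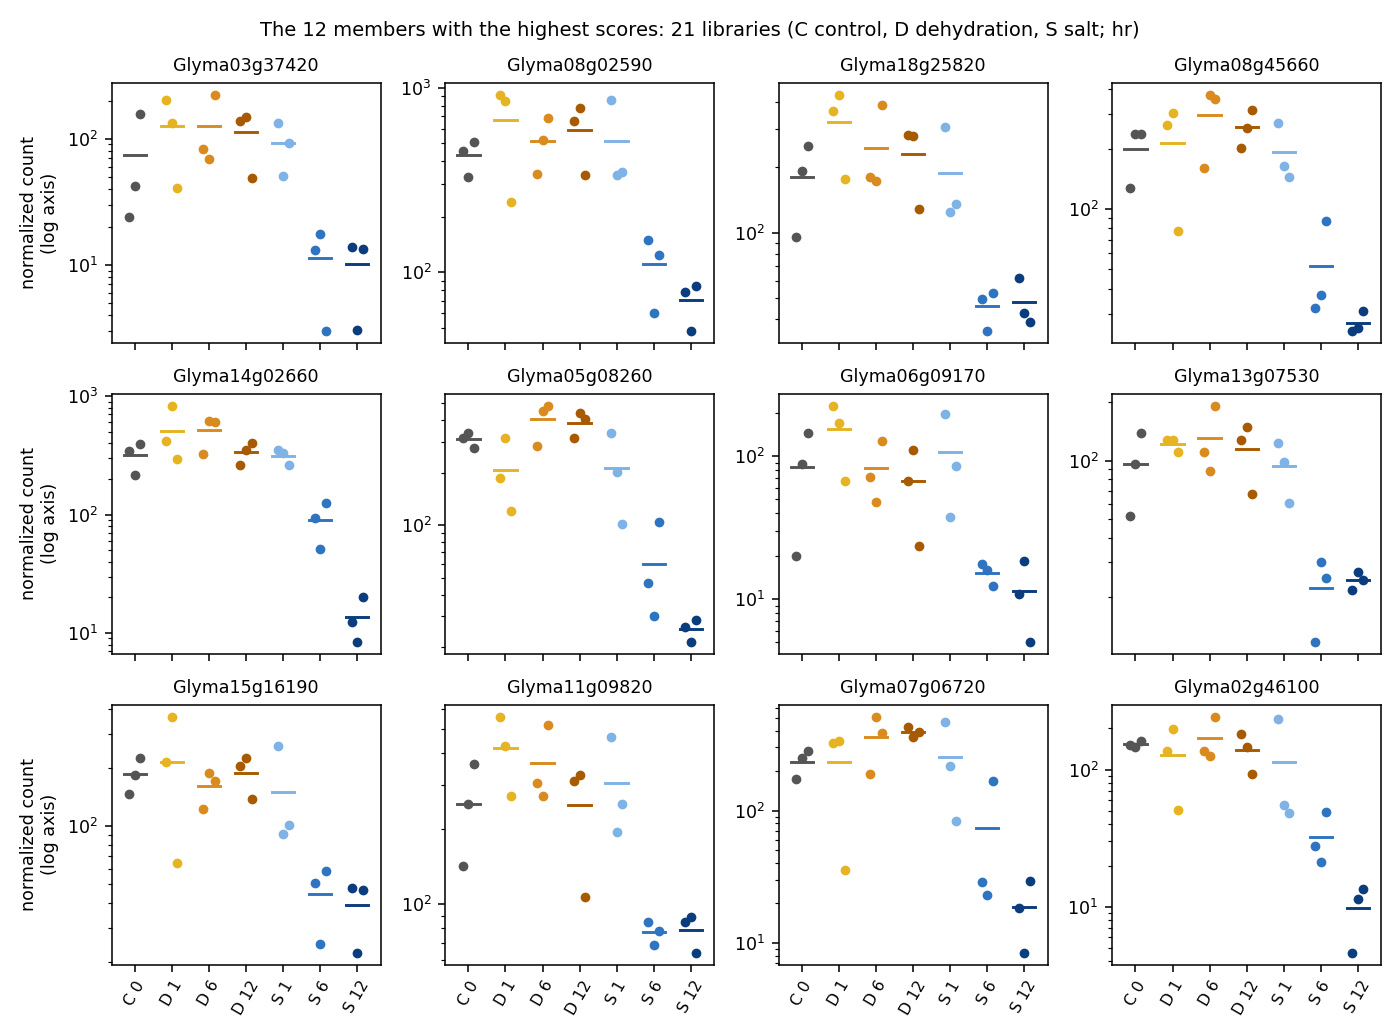
Normalized counts (log axis, scale set per gene) of the 12 members with the highest scores, with 1 point per library and a line at each group mean. In 8 of the 12 genes every library of salt at 6 and 12 hr lies below every other library, and in Glyma14g02660 the 3 libraries of 12 hr, at 8.42 to 20.2, also lie below the 3 of 6 hr, at 51.1 to 125.

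The members could be given a function through one source alone, the study's list of transcription factor genes it found responsive in these same libraries. Of the members, 20 (10%) were among the 978 tested genes of that list, which made up 2.67% of all tested genes. The list was drawn up on these samples, so its overlap with the members is not independent evidence. The best represented class was HMG, proteins with a high mobility group box that bend DNA and are part of chromatin: all 5 listed HMG genes were members. They were followed by ABI3/VP1, the class named after regulators of seed maturation with a B3 DNA-binding domain, with 3 of 9, and by DDT, a domain found in partners of chromatin remodelling enzymes, with 2 of 3. GRAS, the family of the root patterning genes SCARECROW and SHORT-ROOT, gave 2 of 32, PHD, a zinc finger that binds histone tails, 2 of 19, and bHLH 2 of 84. AUX-IAA-ARF, SNF2, C2H2 (Zn) and BTB/POZ gave 1 each.

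The 5 HMG genes had similar values. Their median log2 fold change against Co0 was -1.88 in Na6 and -1.69 in Na12, and 0.19 in De6 and 0.01 in De12. Glyma09g33070, the most abundant of them, had 710, 1312 and 1647 normalized counts in Co0, 1372, 1229 and 876 in De12, 267, 328 and 343 in Na6, and 442, 466 and 495 in Na12. Every late salt library of this gene was below every other library, of which the lowest was replicate 1 of Co0. Glyma20g23370 had 206, 361 and 492 in Co0, 48.1, 123 and 119 in Na6 and 115, 84.2 and 96.6 in Na12, just below the lowest Na1 library at 126. Glyma10g43440 overlapped: it had 95.8, 206 and 208 in Co0 and 27.7, 44.1 and 52.8 in Na6, but replicate 3 of De12 held 47.3. Glyma08g02550 overlapped as well, with 68.5 to 123 in the late salt libraries and 94.5 in replicate 3 of De12, and so did Glyma05g37010, with 23.3 to 44.7 and 38.2 in that same library. The order of Na6 and Na12 among the HMG genes was not fixed by the rule, and no HMG gene was called between them: the differences, salt 12 hr over 6 hr, ran from -0.23 (SE 0.425) for Glyma08g02550 to 0.57 (SE 0.284) for Glyma09g33070, with an adjusted p of 0.861 and 0.393 (edgeR).

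Among the other annotated members, the DDT gene Glyma13g07530 had the highest score. It had 51.8, 96.5 and 138 normalized counts in Co0, 11.7, 30 and 24.9 in Na6 and 21.6, 26.8 and 24.4 in Na12, with no overlap with the other groups. The log2 fold change was -2.11 (SE 0.426) in Na6 and -2 (SE 0.418) in Na12. Glyma07g06060, of the AUX-IAA-ARF class of auxin response regulators, had 318, 332 and 556 in Co0, 121, 118 and 178 in Na6 and 95.5, 103 and 129 in Na12, and its nearest other library was replicate 3 of De1 at 187. The pair of GRAS genes, Glyma17g14030 and Glyma05g03490, fell less than Glyma13g07530. Their log2 fold changes were -1.22 and -1.14 in Na6 and -1.24 and -1.41 in Na12. Over all tested genes of a class in the list, members included, the median log2 fold change in Na6 was -1.31 for the 3 DDT genes and -1.51 for 8 ABI3/VP1 genes, -0.34 for 73 bHLH genes, 0.63 for 30 GRAS genes and 0.98 for 57 C2H2 (Zn) genes. In 11 of the 20 annotated members the late salt libraries did not overlap the others.

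**Figure D3:**
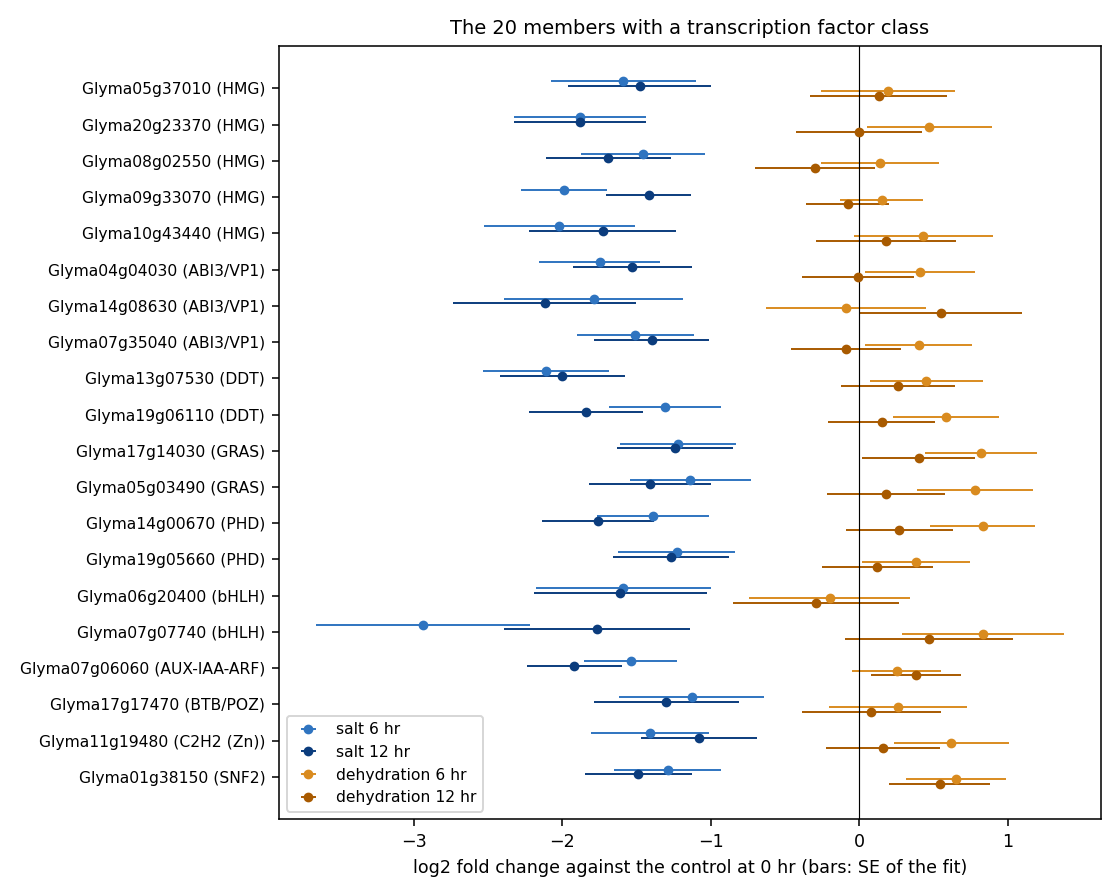
Log2 fold change against the control at 0 hr of the 20 members with a transcription factor class, with bars for the SE of the fit, for salt and dehydration at 6 and 12 hr. The salt values lie between -2.94 and -1.08 and the dehydration values between -0.3 and 0.83, a separation that the choice of the genes fixed.

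The rule required low means at both 6 and 12 hr of salt and set no order between them. The median log2 fold change of Na12 against Na6 was -0.05, with quartiles at -0.25 and 0.15, and 116 members were lower and 84 higher at 12 hr. A difference under 0.5 log2 units was found in 173 members (86.5%) and in 71% of all tested genes. The score used the higher of the 2 late salt values and so favoured genes low at both times. Nothing is therefore read from the difference between these shares. There were 8 members at or below -1 and 2 at or above 1. A gene was called where edgeR's quasi-likelihood test gave an adjusted p (Benjamini and Hochberg) below 0.05 and the change was 2-fold or more. By this criterion 1 member was called, against 0.144% of all genes in either direction, and DESeq2 also called 1. An unadjusted p under 0.05 was reached by 5 of the 200 members, all lower at 12 hr, and by 13.6% of all tested genes.

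The called member was Glyma14g02660, rank 5 by score. It had 345, 215 and 396 normalized counts in Co0, 323, 622 and 602 in De6, and 263, 354 and 405 in De12. The Na1 libraries held 352, 328 and 263, the Na6 libraries 93.3, 51.1 and 125, and the Na12 libraries 12.3, 8.42 and 20.2, so that the 3 salt groups followed one another without overlap. The log2 fold change of 12 hr over 6 hr was -2.76 (SE 0.474, adjusted p = 0.0284, edgeR's quasi-likelihood test). Samples with the same replicate number deviated together in this comparison, and with the replicate number as a block the change was -2.77 with an adjusted p of 0.0541 (edgeR). The call was also lost with lane as a term (adjusted p = 0.369, edgeR), with the 6 libraries of both groups fitted alone (adjusted p = 0.313), and without replicate 1 (0.0507) or 3 (0.0956) of Na6 or replicate 1 (0.0847), 2 (0.118) or 3 (0.0698) of Na12, although the size stayed between -3.22 and -2.4 in these leave-one-out fits.

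At 1 hr the rule set no more than a floor, so that a rise was free and a fall was limited. The Na1 libraries shared no lane with those of Co0 or De1. The median log2 fold change of the members in Na1 against Co0 was -0.02, with 93 members above 0 and 107 below. No member was called in either direction (0 by edgeR, against 1.6% of all genes; 2 of 200 at an unadjusted p under 0.05, against 15% of all genes, and 0 by DESeq2). After 1 hr of dehydration 181 of the 200 were above the control, with a median of 0.39 where all genes had -0.03, but again 0 were called by edgeR, against 2.59% of all genes. An unadjusted p under 0.05 was reached by 18 of 200, 17 of them upward, and by 20.8% of all genes. DESeq2 called 1, Glyma20g37440, at a log2 fold change of 1.45 (SE 0.465) in the edgeR fit. Without replicate 3 of Co0 edgeR called 1 member too, Glyma15g15990. The 3 De1 libraries were not alike: the members' median was 0.705 and 0.461 above the control mean in replicates 1 and 2, and -0.136 from it in replicate 3. The offset from Co0 was not particular to 1 hr. In De6, which the rule kept within 1 log2 unit of Co0, the median was 0.38, with 182 members above 0. In De12, kept within the same limit, it was 0.08, with 128 above 0. Against De1, Na1 was lower in 184 members with a median of -0.4, and 0 were called (edgeR; 15 of 200 at an unadjusted p under 0.05, all lower in Na1, against 9.9% of all genes; 0 by DESeq2), as were 0 of all tested genes (0.0%).

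Within the groups, most members rose and fell together from library to library. The rule used group means alone, but a high or low library moves its group mean. The choice of members was therefore not independent of these deviations. Without replicate 3 of Co0, the library where the members were highest above their group mean (0.574 log2 units), 140 members stayed. After the group mean of log2 CPM was removed from each gene, the correlation of a member with the mean of the other members over the 21 libraries had a median of 0.827. It was above 0.5 in 182 members and above 0.8 in 125. For the 36491 other tested genes the median correlation with the members' mean was 0.00422, and 15.8% were above 0.5. The mean correlation between pairs of members was 0.573, and between pairs of all tested genes 0.000882. These points share libraries, their depth and their scaling, and 3 libraries a group leave few independent values, so the numbers are a description. The median correlation stayed at 0.778 to 0.86 when each library was left out in turn and was 0.847 with lane removed as well. The correlation declined with the score: the median was 0.755 for ranks 201 to 500, 0.707 for 501 to 1000, 0.625 for 1001 to 2000 and 0.411 for 2001 to 7078. How far the selection itself shaped the correlation and its decline was not tested.

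The libraries in which the members were high or low could be named. As the difference from their own group mean in log2 units, the members' median was lowest in replicate 3 of De12 (-0.795), replicate 1 of Co0 (-0.671) and replicate 3 of De1 (-0.556). It was highest in replicate 3 of Co0 (0.574), replicate 2 of De12 (0.458) and replicate 3 of De6 (0.397). The lowest and the highest Co0 library thus differed by 1.245, where the median change between Na6 and Co0 was -1.5. In Na6 the 3 libraries spanned 0.1 and in Na12 0.189. With the 15 libraries outside the late salt groups alone the median correlation was 0.903, and within the 6 late salt libraries it was 0.276. In those 6 libraries 68 members were above 0.5, as were 22.2% of the other tested genes. The 6 libraries of 2 groups leave few independent values. The members' counts were also lower there, with a median of group means of 53.6 in Na6 and 49.5 in Na12 against 149 in Co0. A loss of the shared movement in salt is therefore not read from these values.

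The replicate spread of the members was above that of all tested genes in the groups outside late salt, to different degrees. The median SD between replicates, in log2 CPM, was 0.638 over the members in Co0 where all tested genes had 0.305, and 0.721 against 0.342 in De12. The values were 0.531 against 0.337 in De1, 0.428 against 0.301 in De6 and 0.432 against 0.289 in Na1. In Na6 the median SD was 0.382 against 0.369, and in Na12 0.299 against 0.295. The members' spread in De6 and Na1 was thus close to that in Na6 in itself, though further above that of all tested genes. The members' shared deviation had a Pearson correlation of 0.227 with the deviation of log2 library depth and of 0.614 with that of the log2 TMM factor over the 21 libraries, and the part of either in the pattern was not tested.

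There were 18 members outside this shared movement, with a correlation of 0.5 or less, 5 of them negative. None of the 20 annotated members was among them, whose correlations were 0.581 to 0.937. They did include the most abundant member, Glyma05g36960 (0.19), and the member called between 6 and 12 hr of salt, Glyma14g02660 (0.241). Of the 18, 15 had a lower value in Na12 than in Na6, with a median log2 fold change of -0.37, whereas 101 of the other 182 did, with a median of -0.03. The 18 were singled out after their values were seen, and the difference was not tested.

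The lowest of these correlations was that of Glyma07g01660, at -0.526. It had 3031 normalized counts in replicate 3 of De1, where the other members were low, and 716 and 584 in replicates 1 and 2. The Na1 libraries held 127, 767 and 968, the Na6 libraries 27.7, 242 and 279, and the Na12 libraries 29.3, 119 and 52.1, so replicate 1 was the lowest of its group at all 3 times. The Co0 libraries held 450, 293 and 379, close to one another where the other members differed.

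**Figure D4:**
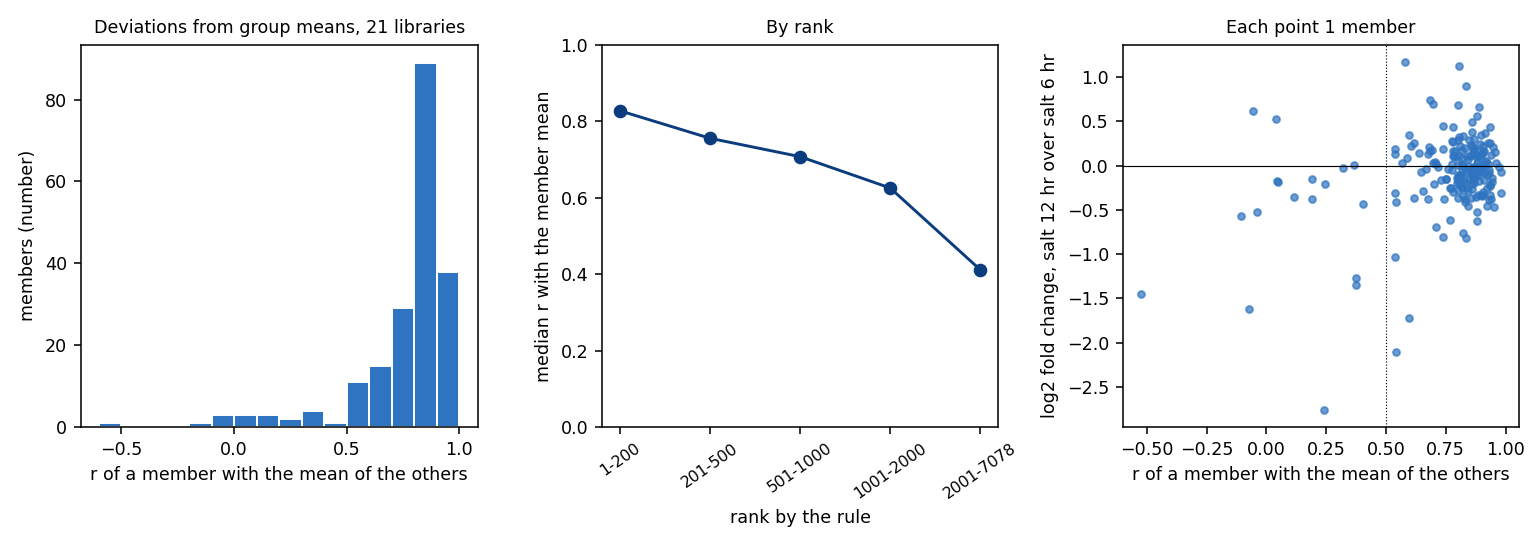
Left, histogram of the correlation of each of the 200 members with the mean of the other members, after removal of group means over 21 libraries. Centre, the median correlation with the member mean by rank of the rule, from 0.827 for the members to 0.411 for ranks 2001 to 7078, and right, the log2 fold change of salt at 12 hr over 6 hr against the correlation, with a dotted line at 0.5 that has 18 members to its left.

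The members were spread over all 20 chromosomes, as the chromosome number in each gene model's name gives it. Their share of tested gene models ran from 0.147% on chromosome 16, with 2 of 1356, to 0.887% on chromosome 3, with 15 of 1691. There were 7 pairs of members that lay within 5 gene models of each other, and 3 of these pairs were direct neighbours. The adjacent pair on chromosome 13 had similar raw counts in every library, in Co0 178, 424 and 634 for one gene and 168, 409 and 606 for the other. Whether the same reads were counted for both was not tested. In 2 of the pairs 1 gene was an HMG gene: on chromosome 5, Glyma05g36960 and the HMG gene Glyma05g37010 were 5 gene models apart, and on chromosome 8 the HMG gene Glyma08g02550 and Glyma08g02590 were 4 apart. The tested gene models between them were not members, and their log2 fold changes in Na6 were 1.28, 1.23, -0.62 and -0.26 on chromosome 5 and 0.67, 2.09 and 2.14 on chromosome 8. The 1 tested gene model between the members Glyma11g37790 and Glyma11g37810 had -0.89.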

How the data were processed

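The authors aligned single-end reads with GSNAP to the soybean assembly, counted reads with a single location on Glyma1.0 gene models and deposited the raw counts. They also deposited a normalized signal, each count divided by 1 DESeq size factor per library (DESeq 1.7.10 per the labels). The counting program and its use of strand are not given in the sources used here, so genes that overlap others, and near-identical copies, are uncertain. The rule for members was applied to the normalized signal. Tests used the raw counts in R 4.3.3 with edgeR 4.0.16: filterByExpr (36691 genes kept), TMM and glmQLFit (robust) in 1 model of 7 groups, with p-values adjusted over all tested genes. DESeq2 1.42.0 was an alternative, beside its size factors, no filter, no fold limit, the 2 groups alone, lane, the replicate number as a block and each library left out. The library totals of 3752853 to 28177205 counts and a biological coefficient of variation of 0.306 set the precision.

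The same-numbered libraries of Na6 and Na12 had correlated deviations (0.157, 0.42 and 0.356), and other comparisons did not in every pair. The lane of each library is the one the study gives. Members and lists were chosen with earlier results of these data known. Genes named are the 12 highest scores, the genes at the threshold, the 5 highest means, members called in the comparisons that the rule left free, and the annotated members. Glyma03g37430, Glyma11g37790, Glyma11g37810, Glyma07g01660, Glyma15g15990 and Glyma20g37440 were named after their values were seen. The gene models matched no entry of the RefSeq annotation at hand (0 of 200 members), so the planned function lists, tissue marker lists and sequences were not used here, and the labelled tissue was not checked against markers.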

Additional observations from a re-analysis of the deposited data

How the results depend on the processing

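The sign of the members' median log2 fold changes was fixed by their selection, and their size varied: leaving out single libraries gave -1.747 to -1.169 for salt at 6 hr and -1.794 to -1.2 for salt at 12 hr. The list itself depended on the scale. With a pseudocount of 1 in place of 10, 116 of the 200 members stayed, and leaving out single libraries kept 140 (without replicate 3 of the control) to 198. The number of members called between salt at 12 and 6 hr was 0 in place of 1 with the 2 groups fitted alone, with the replicate block and with lane as a term, and 0 to 1 when single libraries were left out. For dehydration at 1 hr against the control it was 1 with DESeq2's Wald test, and 0 to 1 when single libraries were left out. For salt at 1 hr against the control and against dehydration at 1 hr it was 0 to 0. The median correlation of the members' deviations ran from 0.778 to 0.86 without single libraries. Among 2079 refits for 38 named genes, 29 moved by more than the replicate spread, 8 lost the call and 0 changed sign. The causes were not tested. The replicate block changed no other call in the comparisons that the rule left free. A control at 0 hr alone and 3 libraries a group limit every comparison, and the 18 weakly correlated members were noticed in these data.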
